A study of Mus musculus with 24 samples.

Results

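The mouse genome carries a large family of collagen genes, and the 42 described here are all those whose symbol follows the collagen chain pattern (Col, a type number, a, a chain number) except Col4a1 and Col4a2, the main basement membrane chains. They were chosen by symbol alone, 42 of the 30590 symbols in the tables of days 1 to 4, and all 42 were found by Ensembl identifier among the 43629 identifiers of the endpoint tables. By the structure of the protein they fall into 11 fibrillar chains, 7 network-forming chains, 9 fibril-associated (FACIT) chains and 15 others.

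The study followed E14 mouse embryonic stem cells (129/Ola background) through a directed protocol toward extraembryonic endoderm, abbreviated XEN, with and without the small-RNA effector protein AGO2. The treatment described in the labels was 5 days on gelatin in medium with 15% fetal bovine serum, 0.1 µM all-trans retinoic acid and 10 ng/mL activin A. Wild-type (WT) and AGO2 knockout (KO) cells each gave 2 libraries on each of days 1, 2, 3 and 4. Of the further groups used here, WT mESC consists of passages 33 and 42 kept with LIF and no differentiation treatment, WT diff_XEN of the libraries XEN A and XEN B, and KO diff_XEN of the knockout clones C4 and 5-3, with 1 library each. The labels mark the mESC and diff_XEN samples as re-used. They do not say which knockout clone the day 1 to 4 libraries came from, nor how long the diff_XEN cells had been cultured. All cells share the E14 origin, and every library was made from polyA RNA with the TruSeq kit. The knockout mESC pair was not analysed here, because no column could be tied to it by its labels.

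Collagens are secreted proteins whose chains wind into a triple helix. Fibrillar collagens such as types I, III and V build the tensile fibrils of connective tissue, network collagens such as types IV and VIII form sheets, and FACITs decorate the surface of fibrils. Parietal endoderm, a derivative of the lineage that XEN cells represent, is known for making the thick Reichert's membrane, a basement membrane rich in type IV collagen and laminin. Fibrillar collagens are products mainly of mesenchymal cells.

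For 4 members whose levels differed strongly between conditions, the 250 bases before the annotated start are shown first, to set their base composition and motifs beside their levels. Col3a1 and Col5a1, fibrillar chains, and Col4a6, a network chain, rose over the course in both genotypes, and Col6a5, a beaded-filament chain, fell. The bases come from RefSeq (GRCm38.p6, the build also called mm10), are written 5′ to 3′ on the strand of the gene, and hold no base of any GENCODE exon. Capitals mark a TATA box (TATAAA) or a GC box (GGGCGG, or CCGCCC where it lies on the other strand).
Col3a1, chr1:45311288-45311537, + strand: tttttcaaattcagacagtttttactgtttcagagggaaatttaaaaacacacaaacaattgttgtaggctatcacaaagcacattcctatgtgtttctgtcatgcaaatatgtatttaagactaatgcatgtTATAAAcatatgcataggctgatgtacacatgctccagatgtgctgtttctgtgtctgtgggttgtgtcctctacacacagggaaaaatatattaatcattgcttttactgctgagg
Col5a1, chr2:27886175-27886424, + strand: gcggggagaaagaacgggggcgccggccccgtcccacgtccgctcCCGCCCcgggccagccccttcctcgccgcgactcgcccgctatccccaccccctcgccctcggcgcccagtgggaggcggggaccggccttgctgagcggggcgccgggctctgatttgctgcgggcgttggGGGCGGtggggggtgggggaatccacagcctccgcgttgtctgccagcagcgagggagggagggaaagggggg
Col4a6, chrX:141474077-141474326, - strand: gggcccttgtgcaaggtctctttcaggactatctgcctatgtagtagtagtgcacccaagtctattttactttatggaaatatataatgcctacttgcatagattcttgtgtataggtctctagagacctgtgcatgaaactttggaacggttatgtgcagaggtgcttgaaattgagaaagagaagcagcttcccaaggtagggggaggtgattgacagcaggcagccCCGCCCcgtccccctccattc
Col6a5, chr9:105960644-105960893, - strand: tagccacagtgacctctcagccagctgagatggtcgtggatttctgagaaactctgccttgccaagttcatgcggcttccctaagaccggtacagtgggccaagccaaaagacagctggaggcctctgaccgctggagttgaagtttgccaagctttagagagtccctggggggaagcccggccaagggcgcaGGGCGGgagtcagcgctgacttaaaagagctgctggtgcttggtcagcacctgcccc

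On both strands of 32851 RefSeq windows of the same length, TATAAA was present in 12.4%, GGGCGG in 32.7% and CCAAT in 33.8%, so each is common. None of the 4 windows holds CCAAT on either strand, and the Col3a1 window is the only one of the 4 with TATAAA. A match to these letters is a description of the window, not a measured site. Col4a6 lies head to head with Col4a5 on chromosome X, with 1308 bp between the genes, and Col3a1 lies tail to tail with Col5a2 on chromosome 1, 24614 bp apart.

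The libraries held 10601574 to 27147835 counted reads on days 1 to 4 and 13941826 to 40139219 at the endpoint. Levels are given as CPM, read counts relative to the library total after scaling by the trimmed mean of M-values, with 1 scaling for the 16 course libraries and another for the 6 endpoint libraries, so no level is compared between the 2 sets. Ago2 stood at 186 to 581 CPM in the WT course libraries and at 33.8 to 148 CPM in the KO course libraries, without overlap. At the endpoint it was 389 and 427 CPM in WT, 115 CPM in clone C4 and 9.35 CPM in clone 5-3. Markers of primitive endoderm and XEN cells rose from day 1 to day 4 in both genotypes, 7 of 7 tested in each. The median log2 difference was 4.33 in WT and 4.06 in KO. They were lower in KO than in WT on day 1 (7 of 7), day 2 (4 of 7), day 3 (6 of 7) and day 4 (5 of 7), and in KO diff_XEN (7 of 7).

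In WT cells most collagen genes rose between day 1 and day 4, and the fibrillar class had the highest median change. A gene counts as called when edgeR's quasi-likelihood test gives it a p below 0.05 after Benjamini-Hochberg adjustment across the genes tested, and adjusted p-values come from that test unless another is named. Of the 40 members that could be tested, 24 rose and 8 fell, with a median log2 difference of 1.70, whereas 48.5% of all tested genes were called (26.9% up, 21.6% down) and their median was 0.01; the share of members called was 80.0%. Among fibrillar chains 9 of 11 rose and 1 fell (median 3.91), among network chains 4 of 6 rose and none fell (median 3.36), among FACITs 5 of 8 rose and 2 fell (median 1.03), and among the others 6 of 15 rose and 5 fell (median 0.25). The summed fibrillar level went from 74.1 to 85.1 CPM on day 1 to 1341 to 2236 CPM on day 4, and because these are bulk samples, more cells of a type and more RNA per cell cannot be told apart.

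**Figure D1:**
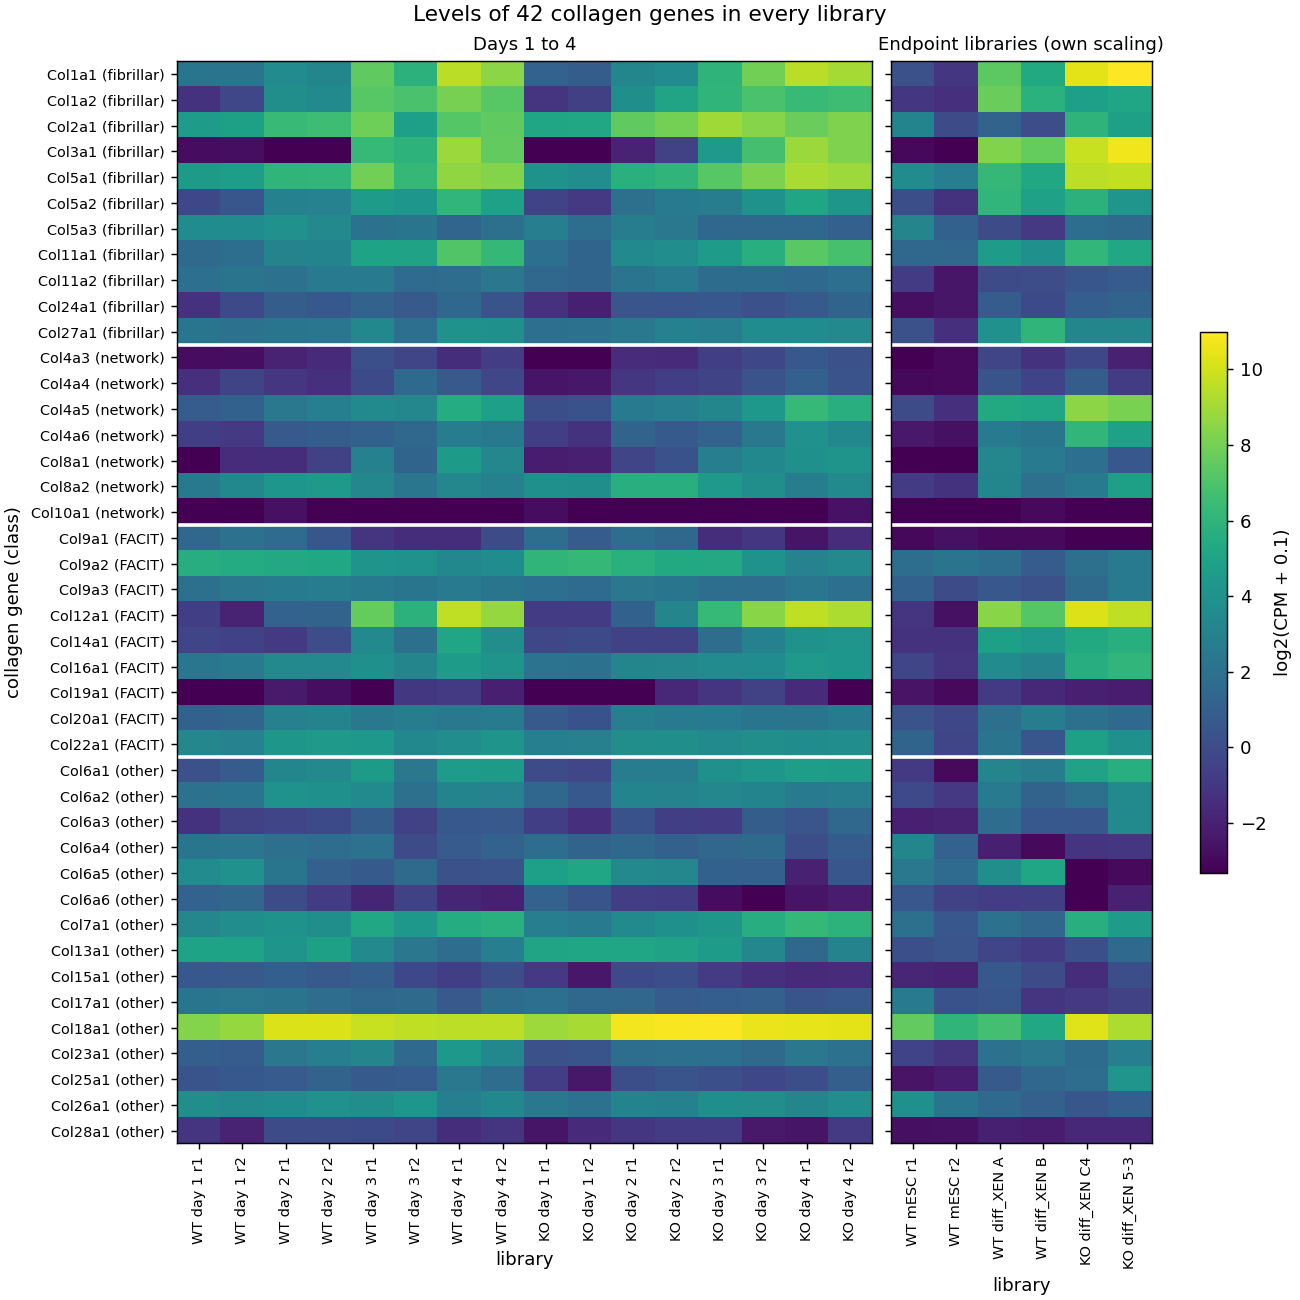
Colour gives log2(CPM + 0.1) of the 42 genes (rows, ordered by class) in the 16 course libraries and the 6 endpoint libraries (columns), each set scaled on its own. Most fibrillar rows turn bright from day 3 onward in both genotypes, while Col18a1 is bright in every column of the course and Col10a1 and Col19a1 stay dark throughout.

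Type I collagen is a heteromer of the chains encoded by Col1a1 (chr11:94936224-94953042 on mm10, as are all gene positions here) and Col1a2 (chr6:4504814-4541544). In the WT libraries of days 1, 2, 3 and 4, Col1a1 was at 4.57 and 4.42, 11.8 and 9.30, 181 and 60.0, and 729 and 366 CPM. Col1a2 was at 0.320 and 0.715, 13.3 and 10.9, 158 and 117, and 266 and 156 CPM. Both were low on day 1 in each library and reached their highest level on day 4 with no overlap with day 1, although the libraries of day 3 and of day 4 stood apart among themselves. The log2 difference between day 4 and day 1 was 6.93 ± 0.76 (SE) for Col1a1 (adjusted p = 2.61e-05) and 8.66 ± 0.59 for Col1a2 (adjusted p = 5.94e-07).

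The chains did not keep a fixed proportion. The ratio of Col1a1 to Col1a2 counts was 14.2 and 6.18 on day 1, 0.893 and 0.855 on day 2, 1.15 and 0.513 on day 3, and 2.74 and 2.34 on day 4 in WT. Col1a1 counts thus exceeded those of Col1a2 on day 1, fell to parity or below on day 2, and exceeded them again on day 4. These are ratios of counts, and the exons of Col1a2 add up to more bases than those of Col1a1 (12426 against 6563 bp).

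Col3a1, which encodes the chain of type III collagen (chr1:45311538-45349706), started from almost no reads. It was at 0.0401 and 0.0421 CPM on day 1, 0 and 0 on day 2, 76.8 and 62.0 on day 3, and 464 and 190 CPM on day 4. The 7819 reads of the day 4 libraries against 2 reads on day 1 give a ratio of 7589 (95% interval 2100 to 62673, counting error only). Col3a1 reads thus appeared between day 2 and day 3, while Col1a1 and Col1a2 were already detected on day 2.

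Col5a1 and Col11a1 encode chains of the minor fibrillar collagens V and XI, which nucleate fibrils and set their diameter. Col5a1 stood at 21.9 and 25.6, 66.7 and 70.0, 246 and 73.7, and 393 and 321 CPM on days 1 to 4, a difference of 3.91 ± 0.48 (adjusted p = 4.74e-05). Col11a1 stood at 3 and 3.49, 8.42 and 8.56, 31.5 and 29.8, and 140 and 75.0 CPM (5.05 ± 0.41, adjusted p = 1.16e-06). Col5a2, the usual partner of Col5a1, rose as well, from 0.761 and 1.30 to 67.7 and 29.8 CPM (5.55 ± 0.56, adjusted p = 6.25e-06). All 3 genes were higher on day 4 than on day 1 in every library.

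Col2a1, the cartilage collagen, rose from 22.7 and 27.7 to 151 and 179 CPM (2.71 ± 0.68, adjusted p = 0.00637), a call lost when WT day 1 replicate 1 was left out (2.55, adjusted p = 0.0572). Its day 3 libraries stood far apart, at 227 and 26.8 CPM. Col5a3 was the fibrillar chain that fell, from 12.3 and 12.6 to 2.42 and 3.87 CPM (-1.97 ± 0.34, adjusted p = 0.000296). Col11a2 was the fibrillar chain with no call, at 3.61 and 4.46 CPM on day 1 and 3.32 and 4.94 CPM on day 4.

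Among network chains, Col4a5 and Col4a6 encode the minor type IV chains α5 and α6 found in specialised basement membranes. Col4a5 was at 1.68 and 2.10, 5.32 and 7.22, 11 and 9.7, and 45.8 and 27.3 CPM on days 1 to 4 (4.27 ± 0.38, adjusted p = 1.37e-06). Col4a6 rose from 0.521 and 0.421 to 6.56 and 5.37 CPM (3.64 ± 0.46, adjusted p = 2.23e-05). Col8a1, a short-chain collagen of vessel walls and corneal endothelium, was at 0 and 0.252 CPM on day 1 and at 22.0 and 9.66 CPM on day 4 (6.92 ± 0.81, adjusted p = 1.76e-05). The other type VIII chain, Col8a2, behaved otherwise: it was at 5.41 and 10.4, 18.6 and 20.6, 9.89 and 4.78, and 9.70 and 7.80 CPM, with its highest values on day 2 and no call between day 4 and day 1 (0.15 ± 0.36, adjusted p = 0.760). The network call of Col4a3 (10 reads on day 4 against 2 on day 1, ratio 9.71, interval 2.07 to 91.1) was lost without WT day 4 replicate 2 (2.49, adjusted p = 0.0972).

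Col12a1 and Col14a1, FACITs that bind to collagen I fibrils, followed the fibrillar genes. Col12a1 was at 0.521 and 0.168, 2.17 and 2.27, 198 and 59.5, and 801 and 425 CPM on days 1 to 4 (10.75 ± 1.20, adjusted p = 2.89e-05), with every day 3 and day 4 library above every earlier one. Col14a1 went from 0.681 and 0.589 to 35.6 and 13.2 CPM (5.24 ± 0.63, adjusted p = 2.07e-05), and Col16a1 from 4.81 and 6.14 to 23.2 and 17.2 CPM (1.88 ± 0.24, adjusted p = 2.57e-05). The type IX chains, which sit on cartilage type II fibrils, went the other way. Col9a2 was at 47.7 and 44.7, 39.2 and 37.0, 16.7 and 16.3, and 10.1 and 12.3 CPM (-2.04 ± 0.31, adjusted p = 0.000129), and Col9a1 fell as well (-2.51 ± 0.57, adjusted p = 0.00227), while Col9a3 had no call. Every Col9a2 library of days 3 and 4 lay below every library of days 1 and 2.

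Col18a1, whose basement membrane product carries endostatin at its C-terminal end, was the most abundant member per length early on. Its CPM values were 331 and 430, 1205 and 1198, 888 and 786, and 752 and 771 on days 1 to 4. It rose by 1.00 ± 0.16 on the log2 scale between day 1 and day 4 (adjusted p = 0.000189), with its highest level on day 2, and the replicates agreed closely on each day. Its reads made up 57.6 to 61.9% of the summed CPM of all 42 genes on day 1, 72.8 to 74.1% on day 2, and 18.4 to 27.7% on day 4. Per kilobase of exon, WT day 1 cells held 54.2 CPM of Col18a1, 14.9 of Col9a2 and 6.84 of Col13a1, and day 4 cells held 108 CPM of Col18a1, 83.5 of Col1a1, 42.0 of Col5a1, 40.2 of Col12a1 and 33.3 of Col3a1. The gene overlaps Slc19a1, and whether the counting used strand is not given in the sources used here.

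The beaded-filament type VI genes were divided. Col6a1 rose from 1.08 and 1.72 to 22.9 and 22.3 CPM (4.01 ± 0.52, adjusted p = 3.84e-05), while Col6a5, a long α3-like chain (chr9:105856078-105960643), was at 12.1 and 15.0, 4.56 and 1.99, 1.57 and 2.94, and 1.08 and 1.15 CPM (-3.59 ± 0.52, adjusted p = 7.46e-05). Its neighbour Col6a6 fell too, from 2.20 and 2.57 to 0.180 and 0.143 CPM (-3.85 ± 0.60, adjusted p = 0.000141). Of the remaining members, Col7a1, the anchoring fibril chain of skin, rose from 9.85 and 12.8 to 46.5 and 53.9 CPM (2.15 ± 0.37, adjusted p = 0.000397), and Col13a1, a transmembrane collagen, fell from 31.5 in both libraries to 3.41 and 7.01 CPM (-2.57 ± 0.55, adjusted p = 0.00213). Further calls were Col20a1, Col23a1 and Col27a1 up.

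Leaving out 1 of the 4 libraries ended 8 of the 32 calls: Col2a1 and Col4a3, described above, and Col6a2, Col6a4, Col17a1, Col22a1, Col24a1 and Col25a1. The last of these was lost without WT day 4 replicate 1 (1.37, adjusted p = 0.0559), and Col24a1 without that library (1.10) or day 1 replicate 1 (1.26). Col22a1 was lost without day 1 replicate 1 (0.86), day 1 replicate 2 (0.58) or day 4 replicate 2 (0.51). Col17a1 was lost without day 1 replicate 1 (-1.06), day 1 replicate 2 (-0.97) or day 4 replicate 1 (-0.57). Col6a2 (0.87 to 1.04) and Col6a4 (-1.61 to -1.18) were lost without any 1 of the 4.

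**Figure D2:**
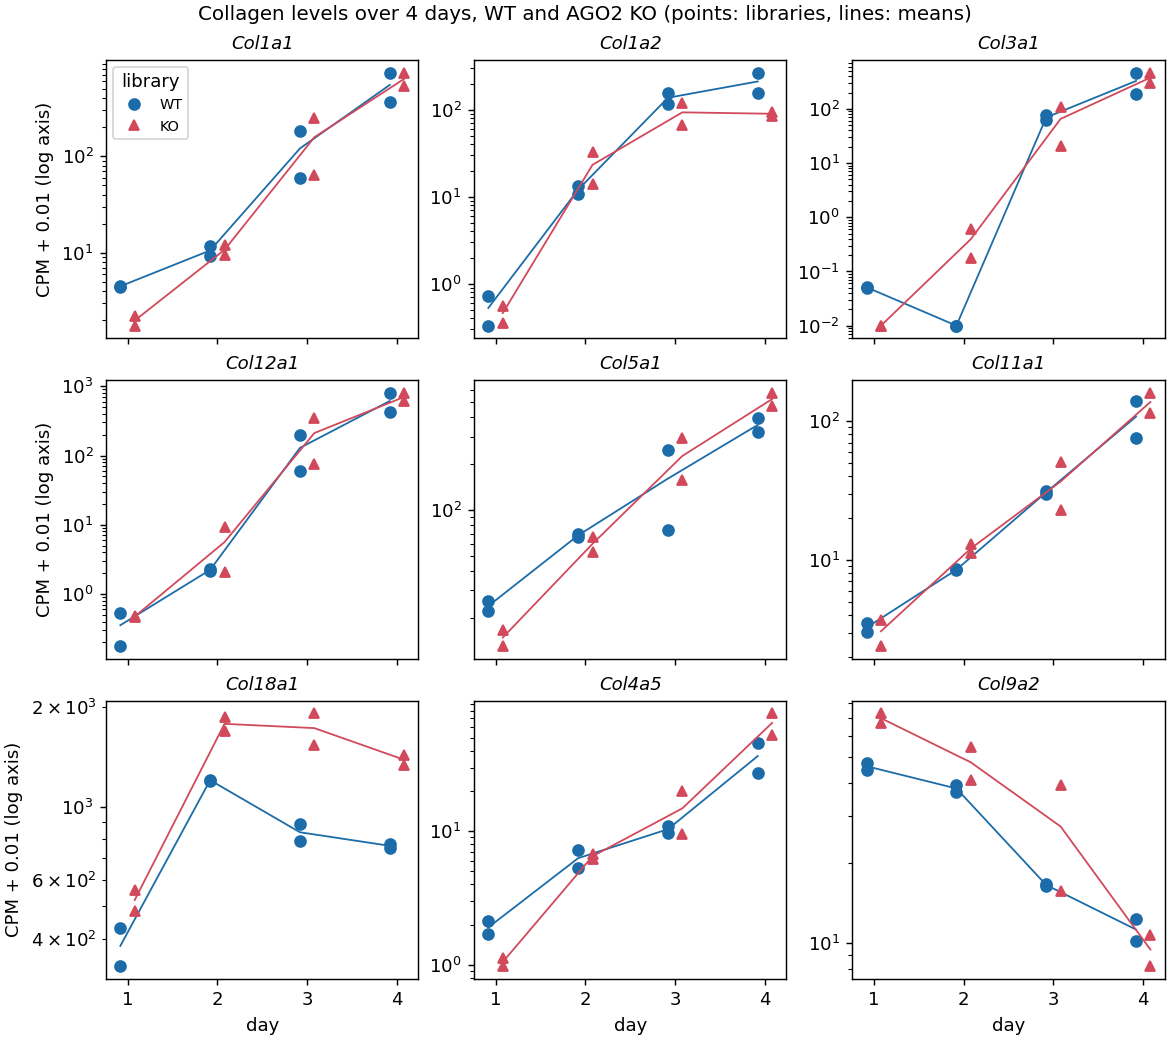
Points are single libraries and lines join the means of 2 libraries on days 1 to 4, for WT and KO, with CPM + 0.01 on a log axis. Col1a1, Col1a2, Col3a1 and Col12a1 climb by orders of magnitude between day 1 and day 4, Col18a1 starts high and lies higher in KO, and Col9a2 declines in both genotypes.

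Replicates of a day differed in their marker sums as well as in collagen. On day 3 the fibrillar sum was 966 CPM in WT replicate 1 and 400 CPM in replicate 2, and the pluripotency marker sum (7 genes, Pou5f1 and Nanog among them) was 452 and 1050 CPM in the same order. In KO on day 3 the fibrillar sum was 850 CPM in replicate 1 and 1192 CPM in replicate 2, the FACIT sum 152 and 404 CPM, and the pluripotency sum 791 and 213 CPM. The day 3 library with the lower fibrillar and FACIT sums thus had the higher pluripotency sum in both genotypes. The sum of the other class went the opposite way in KO (2006 and 1648 CPM), as did Col2a1 (498 and 334 CPM), and the sum over all 42 genes was 3048 and 3295 CPM. On day 4 the smooth muscle marker sum (5 of 5 genes rose between day 1 and day 4) was 4697 CPM in WT replicate 1 and 1661 CPM in replicate 2, the same order as Col1a1, Col3a1 and Col12a1. The fibroblast and mesenchyme list had 9 of 10 genes up and 1 down between days 1 and 4 (2165 to 3412 CPM on day 4, 727 to 888 CPM on day 1), with no defining marker at 0 on day 4. The part of these cells in the collagen values was not tested.

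In KO cells most collagen genes rose over the same days. Between day 1 and day 4, 27 of 40 members rose and 7 fell (median 2.12), where 66.3% of all genes were called (33.3% up, 32.9% down). Of these, 24 of the upward and 7 of the downward calls were made in WT too, and no member was called in opposite directions. The fibrillar chains rose in 9 of 11 cases and fell in 1 (median 5.15), network chains rose in 5 of 6 (median 5.40, or 4.55 with genes at 0 reads set to their lower bound), FACITs rose in 5 of 8 and fell in 2 (median 1.42), and others rose in 8 of 15 and fell in 4 (median 1.25). Col4a4, Col6a3 and Col26a1 were called up in KO and had no call in WT, which by itself is no test of a difference. The day with the highest mean level was the same in both genotypes for 34 of the 40 members, and it was day 4 for 20 members in each genotype. Shared calls and shared days were not counted over all genes, so neither is read as a trait of collagens.

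The type I chains again rose from low day 1 levels. Col1a1 was at 2.20 and 1.75, 9.51 and 11.9, 64.4 and 250, and 732 and 533 CPM on days 1 to 4 (8.31 ± 0.82, adjusted p = 5.92e-06). Col1a2 was at 0.348 and 0.553, 14.1 and 32.4, 66.5 and 120, and 85.0 and 94.8 CPM (7.64 ± 0.58, adjusted p = 6.70e-07). The day 4 values of Col1a2 lay within the range of its day 3 values, while those of Col1a1 lay above it. The ratio of their counts on day 4 was 8.62 and 5.63, above the 2.74 and 2.34 of WT.

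Col3a1 went from 0 reads in both day 1 libraries to 459 and 296 CPM on day 4, at least 5856-fold higher (floor of 3 reads over the group). Col12a1 reached 792 and 610 CPM, and Col5a1 rose from 16.5 and 13.1 to 576 and 475 CPM (5.15 ± 0.51, adjusted p = 4.89e-06). Col11a1 rose from 3.71 and 2.39 to 159 and 115 CPM (5.48 ± 0.41, adjusted p = 3.55e-07). On day 4 the libraries of the genotypes overlapped for Col1a1, Col3a1, Col11a1 and Col12a1, and those of Col5a1 lay higher in KO.

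Among network chains, Col4a5 had the smallest p of all members in KO, with 0.966 and 1.11, 6.19 and 6.77, 9.47 and 20.2, and 76.7 and 53.0 CPM (5.96 ± 0.41, adjusted p = 1.05e-07). Col4a6 rose from 0.541 and 0.322 to 15.2 and 10.1 CPM (4.83 ± 0.46, adjusted p = 1.15e-06). Col16a1 rose from 4.25 and 3.91 to 20.2 and 18.2 CPM (2.23 ± 0.24, adjusted p = 3.55e-06). Of the falls, Col6a5 had the smallest p, at 27.5 and 33.8, 10.5 and 9.94, 2.10 and 2.04, and 0.150 and 1.30 CPM (-5.32 ± 0.54, adjusted p = 2.08e-06), and Col9a2 fell from 66.9 and 73.2 to 8.18 and 10.7 CPM (-2.89 ± 0.32, adjusted p = 4.50e-06).

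Leaving out a library ended 4 of the 34 KO calls. Without day 4 replicate 2 these were Col5a3 (-0.94), Col6a3 (1.56), Col22a1 (0.72) and Col25a1 (1.59). Col5a3 (-0.65) and Col22a1 (0.71) were also lost without day 1 replicate 1, and Col6a3 (1.89) without day 1 replicate 2.

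Set directly against WT on the same day, few collagens were called in KO. Their share was near or below that of all genes on each day, and their number depended on the fit. On day 1, 4 of 40 members were lower and none higher (median -0.61), where 13.6% of all genes were called (6.71% lower), beside 10.0% of the members. Other fits called more members on day 1, some of them higher. With no expression filter 14 of 42 were called (5 higher), where 13.0% of all genes were. The 4 libraries alone gave 11 of 34 (3 higher), where 17.0% of all genes were called. The DESeq2 Wald test gave 6 of 40 (2 higher), which is 15.0% of the members beside 18.5% of all genes. Col26a1, an EMI-domain collagen, was at 13.6 and 10.9 CPM in WT and 5.22 and 4.10 CPM in KO (-1.39 ± 0.25, adjusted p = 0.00848). Col15a1, a multiplexin like Col18a1, was at 1.44 and 1.47 against 0.425 and 0.0921 CPM (-2.41 ± 0.55, adjusted p = 0.0205). Col5a3 (-1.26 ± 0.31, adjusted p = 0.0258) and the transmembrane Col25a1 (-2.06 ± 0.54, adjusted p = 0.0293) were lower too. In these 4 genes the WT and KO libraries did not overlap, but that held for 32 of the 40 members on day 1. How many of all genes did so was not counted. Leaving out replicate 2 of either genotype ended each call (Col26a1 -1.50 and -1.21, Col15a1 -2.36 and -1.74, Col5a3 -1.21 and -0.86, Col25a1 -1.90 and -1.36). Without WT replicate 1, Col15a1 (-2.39), Col5a3 (-1.24) and Col25a1 (-2.15) were lost and Col26a1 was kept.

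On day 2 no member was called, where 1.63% of all genes were. At an unadjusted p below 0.05 there were 9 of 40 members (14% of all genes), and the DESeq2 Wald test called 4 of 40 (3.43% of all genes). The smallest adjusted p was that of Col8a2, at 18.6 and 20.6 CPM in WT and 53.0 and 53.2 CPM in KO (1.44 ± 0.34, adjusted p = 0.0503). The KO libraries lay above the WT libraries also for Col6a5 (4.56 and 1.99 against 10.5 and 9.94 CPM, 1.65 ± 0.44, adjusted p = 0.0823) and for Col18a1 (0.56 ± 0.16, adjusted p = 0.106). These 3 were called by the DESeq2 Wald test (adjusted p = 0.00256, 0.00449 and 0.0301).

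On days 3 and 4 Col18a1 was the member higher in KO. On day 3 the WT libraries held 888 and 786 CPM and the KO libraries 1913 and 1535 CPM (1.04 ± 0.16, adjusted p = 0.00235), and on day 4 they held 752 and 771 against 1431 and 1338 CPM (0.86 ± 0.16, adjusted p = 0.00453). The KO libraries were above the WT libraries on all 4 days without overlap, though days 1 and 2 were not called (0.46 ± 0.16, adjusted p = 0.0683 on day 1). Members without overlap, in either direction, numbered 32, 28, 12 and 18 of 40 on days 1 to 4. Such counts were not taken over all genes, so they are not read as a trait of collagens. The day 3 call was lost when the 4 day 3 libraries were fitted alone (1.02, adjusted p = 0.196), and the day 4 call without WT replicate 1 (0.85, adjusted p = 0.0502). Col4a1, the major type IV chain of basement membranes, was lower in KO on each day (-2.84, -1.88, -2.24 and -2.40 on the log2 scale, all called).

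The other call of day 3 was Col6a6, with 1 read in KO against 11 in WT (ratio 15.9 lower, interval 2.32 to 687; adjusted p = 0.0491), which the DESeq2 Wald test did not make (adjusted p = 0.0793) and which was lost without WT replicate 2 (-2.49), KO replicate 1 (-5.96) or KO replicate 2 (-3.28). In all, 1 of 40 members was higher and 1 lower on day 3 (4.83% of all genes called, 1.83% higher and 3% lower). The number of members called moved up or down with the library left out, and so did the share of all genes. On day 4 the second call was Col23a1, a transmembrane collagen, at 19.6 and 10.2 CPM in WT and 4.96 and 4.14 CPM in KO (-1.71 ± 0.42, adjusted p = 0.0246). It was lost without WT replicate 1 (-1.16), KO replicate 1 (-1.81) or KO replicate 2 (-1.56), and Col18a1 was lost without WT replicate 1 too. Beside the 2 calls of day 4, 7.04% of all genes were called (1.99% higher and 5.05% lower).

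For Col1a1, Col3a1 and Col12a1, abundant on day 4, the genotype differences were smaller than their errors. They were 0.21 ± 0.57 (adjusted p = 0.889), 0.21 ± 0.65 (adjusted p = 0.907) and 0.19 ± 0.71 (adjusted p = 0.922) in that order. Col5a1 was above WT in both KO libraries without a call (0.56 ± 0.43, adjusted p = 0.517). Col1a2 was lower in both KO libraries (-1.23 ± 0.38, adjusted p = 0.0797), a difference that the DESeq2 Wald test called (adjusted p = 0.0208). Col4a5 (0.83 ± 0.31, adjusted p = 0.140) and Col4a6 (1.09 ± 0.37, adjusted p = 0.0982) were above WT in both KO libraries without a call.

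Whether the change from day 1 to day 4 itself differed was tested as an interaction, in which 6.42% of all genes were called (2.59% higher in KO). Of 40 members 1 was called, Col26a1, which went from 13.6 and 10.9 to 7.27 and 10.4 CPM in WT and from 5.22 and 4.10 to 9.46 and 12.7 CPM in KO (1.71 ± 0.35, adjusted p = 0.0148). The call was lost without WT day 1 replicate 1 (1.52), WT day 4 replicate 1 (1.46), KO day 1 replicate 2 (1.57) or KO day 4 replicate 2 (1.46). The interaction of Col4a5 was 1.70 ± 0.53 (adjusted p = 0.0656).

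**Figure D3:**
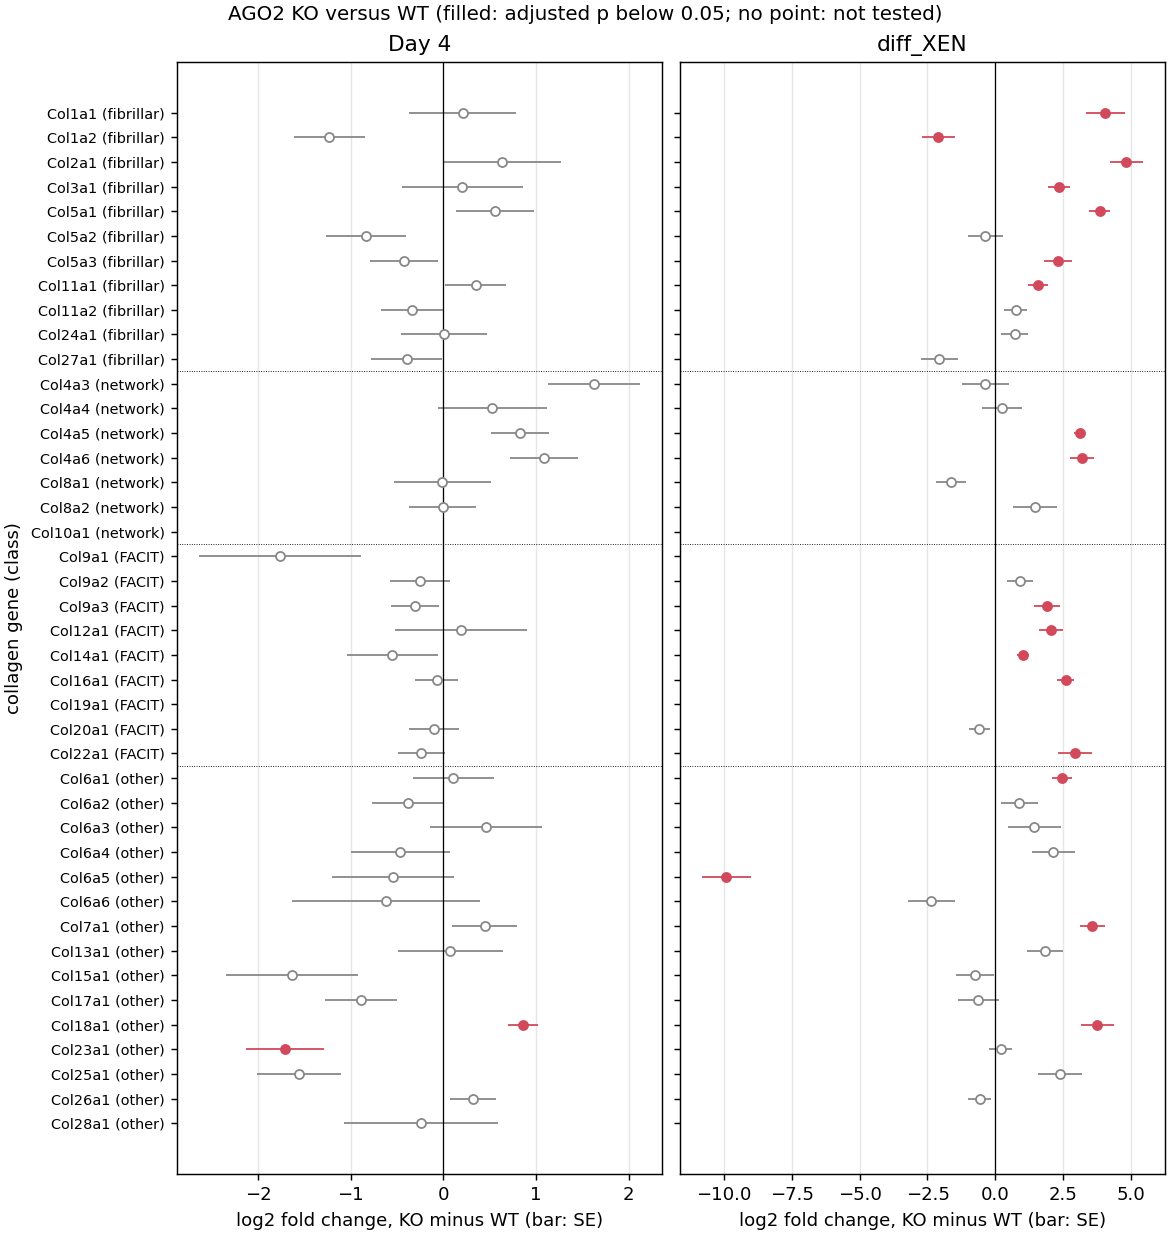
Points give the log2 difference of KO minus WT and bars its SE for each member on day 4 (left) and in diff_XEN cells (right, on a wider axis), filled where the adjusted p is below 0.05. On day 4 only Col18a1 and Col23a1 are filled, whereas in diff_XEN cells 16 filled points lie above 0 and 2, Col1a2 and Col6a5, below.

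In the diff_XEN cells Col1a1, Col3a1, Col5a1, Col4a5 and Col18a1 were among the collagens higher in the KO clones, and Col1a2 and Col6a5 were lower. Of 38 testable members 16 were higher and 2 lower, with a median log2 difference of 1.44. The share called, 47.4%, was near the 47% of all genes (22.1% higher, 24.9% lower), so it is the directions that are described here and not the number. The fibrillar class had 6 of 11 higher and 1 lower (median 1.57), the network class 2 of 6 higher (median 0.84), the FACITs 5 of 7 higher (median 1.91) and the others 3 of 14 higher and 1 lower (median 1.15). The summed fibrillar level was 447 to 879 CPM in WT and 3260 to 4571 CPM in the KO clones. Each KO library is a different clone, so the spread between them holds both clone and library differences. Fold changes come from a fit of these 4 libraries, and CPM values from the scaling of all 6 endpoint libraries.

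Among fibrillar genes, Col1a1 read 167 and 41.7 CPM in the WT libraries XEN A and XEN B, against 1383 and 1993 CPM in the KO clones C4 and 5-3 (4.04 ± 0.72, adjusted p = 0.00875). Col3a1 was at 314 and 198 against 887 and 1630 CPM (2.33 ± 0.40, adjusted p = 0.00804). Col5a1 was at 75.1 and 36.9 against 756 and 813 CPM (3.83 ± 0.39, adjusted p = 0.00280). For all 3 genes both clones lay above both WT libraries.

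Col2a1 was at 2.27 and 0.957 CPM in WT and 62.5 and 27.7 CPM in KO (4.81 ± 0.60, adjusted p = 0.00381). Col11a1 (1.57 ± 0.37, adjusted p = 0.0196) and Col5a3 (2.30 ± 0.53, adjusted p = 0.0183) completed the 6. Col11a1 was lost without XEN B (1.31) or clone C4 (1.13), and Col5a3 without XEN B (1.87), C4 (2.25) or 5-3 (2.40).

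The partner chains Col1a2 and Col5a2 did not follow. Col1a2 read 210 and 57.2 CPM in XEN A and XEN B but 26.9 and 33.9 CPM in the clones (-2.11 ± 0.61, adjusted p = 0.0371), a call lost without clone C4 (-1.90, adjusted p = 0.156) or 5-3 (-2.30, adjusted p = 0.113). Col5a2 was at 68.7 and 29.2 CPM in WT and 58.2 and 17.7 CPM in KO (-0.37 ± 0.64, adjusted p = 0.662). As a result the ratio of Col1a1 to Col1a2 counts was 0.799 and 0.729 in WT but 51.5 and 58.8 in the clones, and that of Col5a1 to Col5a2 was 1.09 and 1.26 in WT but 13.0 and 46.1 in the clones. In WT mESC, where both type I chains had few reads, the Col1a1 to Col1a2 ratio was 2.81 and 1.4, between those of the diff_XEN groups, and the Col5a1 to Col5a2 ratio was 12.2 and 21.1, overlapping the clones.

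**Figure D4:**
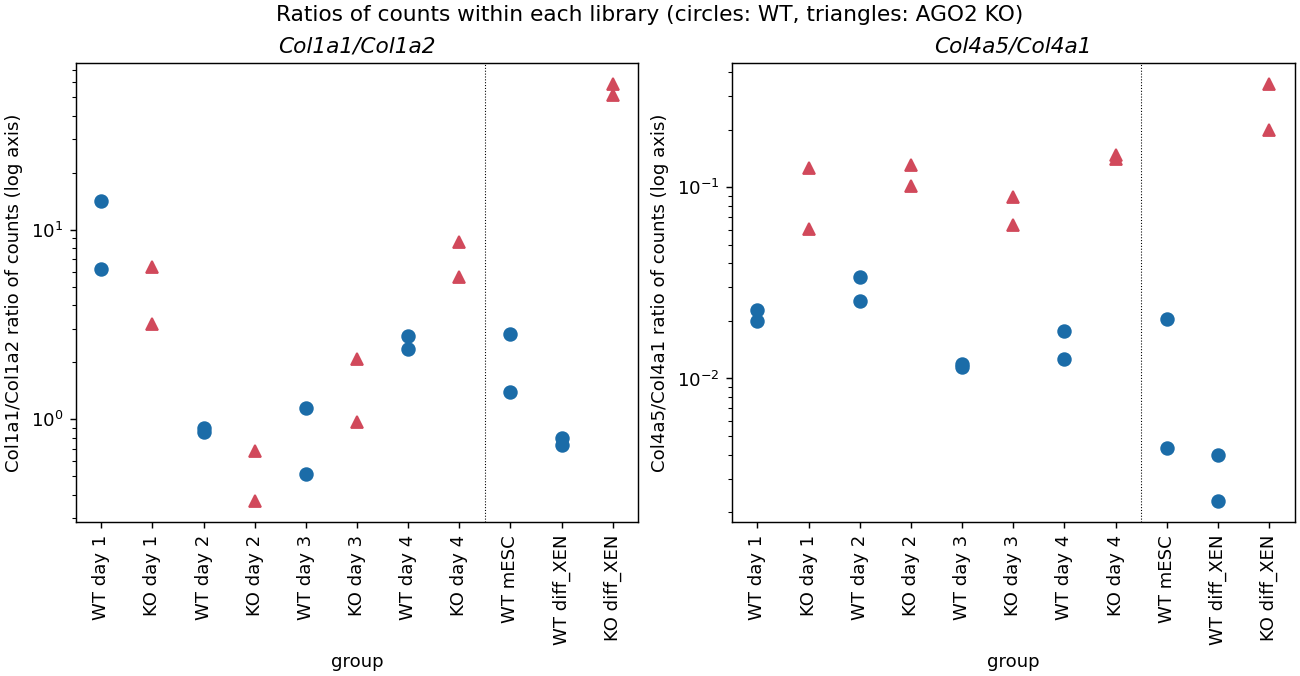
Each point is the ratio of counts in 1 library on a log axis, Col1a1 over Col1a2 in one panel and Col4a5 over Col4a1 in the other, by group. The KO diff_XEN clones stand above every other library in both panels, at 51.5 and 58.8 for the type I pair and at 0.346 and 0.199 for the type IV pair.

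Of the minor type IV chains, Col4a5 and Col4a6 were higher in KO, whereas Col4a3 (0.704 and 0.328 against 0.752 and 0.145 CPM) and Col4a4 (1.22 and 0.629 against 1.78 and 0.492 CPM) overlapped between the genotypes and had no call. Col4a5 was at 40.7 and 35.8 CPM in WT and 365 and 279 CPM in KO (3.10 ± 0.20, adjusted p = 0.00224), the smallest p of any member. Col4a6 was at 6.14 and 4.62 against 68.6 and 28.8 CPM (3.19 ± 0.46, adjusted p = 0.00508). Col4a1 was lower by -3.37 on the log2 scale (adjusted p = 0.00271), so that the ratio of Col4a5 to Col4a1 counts was 0.00396 and 0.00228 in WT and 0.346 and 0.199 in the clones. Over the course this ratio was 0.0115 to 0.0340 in WT and 0.0605 to 0.147 in KO, without overlap. Col8a2, at 9.25 and 3.85 CPM in WT and 5.74 and 28.6 CPM in KO, overlapped between genotypes (1.45 ± 0.81, adjusted p = 0.195), and Col8a1, at 9.74 and 5.60 against 3.69 and 1.36 CPM, was not called (-1.63 ± 0.56, adjusted p = 0.0612).

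Among FACITs, Col12a1 was at 345 and 152 CPM in WT and 1222 and 794 CPM in the clones (2.04 ± 0.44, adjusted p = 0.0157), which fell short of the threshold without clone C4 (1.75, adjusted p = 0.0647). Col16a1 was at 12.0 and 8.26 against 48.4 and 69.7 CPM (2.58 ± 0.31, adjusted p = 0.00351). Col14a1 was at 27.0 and 20.4 against 41.4 and 52.1 CPM (1.01 ± 0.24, adjusted p = 0.0195), lost without XEN B (0.85) or 5-3 (0.82). Col22a1, a collagen of tissue junctions, was higher (2.93 ± 0.64, adjusted p = 0.0163) but lost without C4 (2.43). Col9a3 was higher (1.91 ± 0.48, adjusted p = 0.0250) but lost without XEN A (2.07), XEN B (1.76) or 5-3 (1.31). The FACIT genes thus lay above WT in both clones wherever they were called.

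Among the others, Col18a1 was at 104 and 39.0 CPM in WT and 1285 and 612 CPM in KO (3.74 ± 0.61, adjusted p = 0.00686), Col7a1 at 3.98 and 2.52 against 52.2 and 24.4 CPM (3.57 ± 0.46, adjusted p = 0.00403) and Col6a1 at 8.93 and 6.37 against 29.9 and 52.4 CPM (2.46 ± 0.37, adjusted p = 0.00554). Col6a5 went the other way and was nearly absent from the clones: 13.4 and 33.8 CPM in WT, 0 in C4 and 0.0289 CPM in 5-3. That is 1 read against 1734, a ratio of 1160 lower (interval 208 to 45840; adjusted p = 0.00246). On days 1 and 2 of the course the same gene had been above WT in both KO libraries without a call (1.18 ± 0.40, adjusted p = 0.0624 on day 1). Per kilobase of exon the KO clones held 257 CPM of Col1a1, 135 of Col18a1, 128 of Col3a1, 92.4 of Col5a1, 66.2 of Col12a1 and 48.0 of Col4a5, while WT held 26.1 of Col3a1, 16.3 of Col12a1, 15.9 of Col1a1, 10.7 of Col1a2 and 10.2 of Col18a1.

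Markers of several cell types differed between these groups together with the collagens. The parietal endoderm sum (10 genes, laminin chains and Sparc among them) was 32262 to 55251 CPM in WT and 7694 to 8626 CPM in KO, with 7 of 10 genes lower. The visceral endoderm sum was 9021 to 9535 against 284 to 332 CPM (7 of 9 lower, Fga at 0 in clone C4). Cubn alone held 8127 and 8230 CPM of this sum in the WT libraries. The primitive endoderm sum was 3379 to 4314 against 416 to 629 CPM (7 of 7 lower). The KO libraries thus carried less of all 3 endoderm marker sums than the WT libraries.

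The fibroblast and mesenchyme sum was 1077 to 1771 CPM in WT and 5853 to 7069 CPM in KO (7 of 10 higher, 1 lower). Lum, a fibroblast proteoglycan, was at 0 in both clones. Vim alone was at 2281 and 2071 CPM in C4 and 5-3. Dcn overlapped between WT and KO (11.6 and 6.51 against 6.77 and 8.30 CPM). The smooth muscle sum was 526 to 1214 against 7899 to 8860 CPM (5 of 5 higher), and the neural sum 50.5 to 77.6 against 421 to 489 CPM (4 of 4 higher). The chondrocyte sum was 20.3 to 22.6 against 51.2 to 63.4 CPM (2 higher, 2 lower of 7). The osteoblast list had 1 gene higher and 1 lower. Runx2 was at 1.14 and 0.929 CPM in WT and 7.25 and 9.90 CPM in KO, and Spp1 at 198 and 189 against 9.23 and 7.67 CPM, while Bglap was at 0 in both clones and Sp7 and Ibsp were each below 0.24 CPM. The part of these cells in the collagen differences was not tested.

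WT diff_XEN cells held more of most collagens than WT mESC. The counts of these groups were deposited apart, so a difference between their sources cannot be told apart from that between the cells. Of 38 members 25 were higher and 3 lower (median 2.99), where 52.5% of all genes were called (27.2% higher, 25.3% lower). The fibrillar chains had 8 of 11 higher and 1 lower (median 4.25), the network chains 6 of 6 higher (median 5.47), the FACITs 4 of 7 higher (median 2.38) and the others 7 of 14 higher and 2 lower (median 1.4). Of the 25, 20 had also risen between days 1 and 4 in WT, a count that was not taken over all genes. Marker lists differed between the same groups: parietal endoderm 10 of 10 higher (1245 to 1492 CPM in mESC, 32262 to 55251 CPM in diff_XEN), pluripotency 7 of 7 lower (3890 to 5042 against 265 to 282 CPM) and smooth muscle 5 of 5 higher (15.9 to 26.7 against 526 to 1214 CPM). The fibroblast and mesenchyme list had 7 of 10 higher and 1 lower, with overlapping sums (1044 to 1754 against 1077 to 1771 CPM). Their part in the collagen differences was not tested.

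Undifferentiated cells had almost no mRNA of the late genes. Col3a1 was at 0.0240 and 0 CPM in mESC and 314 and 198 CPM in WT diff_XEN, 18871 reads against 1 (ratio 20059, interval 3600 to 792311; adjusted p = 7.63e-05). Col12a1 was at 0.360 and 0.0548 CPM in mESC against 345 and 152 (10.16 ± 0.80, adjusted p = 0.000162), and Col1a2 at 0.384 and 0.274 against 210 and 57.2 (8.64 ± 0.77, adjusted p = 0.000239). Both differentiated libraries exceeded both mESC libraries in each of these genes.

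Col14a1 was at 0.336 and 0.329 CPM in mESC (6.14 ± 0.35, adjusted p = 7.63e-05), Col4a5 at 0.912 and 0.302 CPM (5.95 ± 0.47, adjusted p = 0.000165) and Col16a1 at 0.696 and 0.356 CPM (4.24 ± 0.43, adjusted p = 0.000385). Col8a1 had 0 reads in mESC and 565 in WT diff_XEN, at least 200.2-fold more. Col18a1 was the exception among abundant members: it was at 189 and 65.5 CPM in mESC and 104 and 39.0 CPM in WT diff_XEN, overlapping, and made up 63.4 to 67.2% of the collagen sum in mESC but 4.95 to 6.95% in WT diff_XEN.

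The lower calls were Col5a3 (-3.07), Col6a4 (-6.07) and Col26a1 (-1.96). Col5a3 was lost without mESC passage 33 (-1.60) or XEN B (-2.58), and Col26a1 without passage 33 (-0.91), XEN A (-2.21) or XEN B (-1.69). Col6a5 was the member with opposite calls in the 2 WT comparisons: it fell from day 1 to day 4 and was higher in diff_XEN than in mESC (5.30 and 3.07 against 13.4 and 33.8 CPM, 2.49 ± 0.53, adjusted p = 0.00674), the latter lost without XEN B (1.71). Leaving out 1 library also ended the calls of Col8a2 without passage 42 (3.76), of Col4a3 without passage 33 (4.07) or XEN A (4.35), and of Col6a2 without passage 42 (2.40) or XEN A (1.93). Col6a3 (3.25 to 4.03) and Col15a1 (2.32 to 2.82) were lost without passage 33, passage 42 or XEN A.

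Collagen chains depend on a machinery that hydroxylates, folds and exports them, trims the secreted procollagen and cross-links the fibrils. In WT between days 1 and 4, 20 of 22 modification genes rose and 1 fell (median 1.78), led by the collagen chaperone Serpinh1 (2.97 ± 0.17, adjusted p = 6.05e-08), the prolyl 4-hydroxylase subunit P4ha2 (2.04), the collagen galactosyltransferase Colgalt1 (1.52) and the prolyl 3-hydroxylase P3h2 (3.56). Of 12 trimming and cross-linking genes 9 rose and 2 fell (median 2.41), with the lysyl oxidases Loxl4 (4.47) and Loxl1 (2.74), the C-proteinase Bmp1 (3.44) and the N-proteinase Adamts2 (2.84) in front. Of 8 receptors 6 rose, Itgb1 (2.45), Ddr1 (2.12), Mrc2 (1.13) and Itga11 (3.32) first, and of 10 degradation genes 8 rose, with Mmp2 (3.36), Mmp15 (2.70), Ctsb (1.71) and Timp3 (4.18). In KO the counts were 16 up and 2 down, 10 and 2, 6 and 0, and 9 and 0 for the same 4 lists. Of all genes, 26.9% rose and 21.6% fell in WT, and 33.3% rose and 32.9% fell in KO.

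Against WT, the calls in the modification list were all lower in KO on days 3 and 4, as was the 1 call of day 2. Over all genes, 0.853% were called lower on day 2, 3% on day 3 and 5.05% on day 4. The share called higher was 6.89% on day 1 and 1.99% on day 4. On day 4, 5 of 22 were lower and none higher (median -0.40), among them Colgalt1 (317 CPM in WT and 134 in KO, -1.24 ± 0.12, adjusted p = 1.84e-05), P4ha2 (171 and 64.1 CPM, -1.42 ± 0.15, adjusted p = 4.19e-05), the export factor Mia2 (8.53 and 0.0928 CPM, -6.31 ± 0.69, adjusted p = 6.95e-05) and P3h2 (-1.46). On day 3, 4 of 22 were lower (P4ha2 -1.07, Colgalt1 -0.67, Mia2 -3.75 and the lysyl hydroxylase Plod2 -1.12), on day 2 P4ha2 alone (-1.02), and on day 1 there were 3 higher and none lower (Crtap 1.05, P3h4 1.39, Fkbp10 0.97). The receptors Ddr1 (0.98) and Mrc2 (0.77) and the inhibitor Timp1 (1.24) were higher on day 4. In the interaction Colgalt1 (-1.09), Crtap (-1.22), P4ha2 (-0.97) and P4hb (-0.85) were lower in KO. Bmp1 (1.64) and Mmp2 (1.35) were higher and the procollagen enhancer Pcolce2 lower (-1.53), where 2.59% of all genes were higher and 3.83% lower.

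In diff_XEN cells 22.1% of all genes were higher and 24.9% lower in KO, and the counts for the same lists were as follows. Of 21 modification genes 6 were higher and 11 lower in KO (median -0.84), with Mia2 (-2.23 ± 0.19, adjusted p = 0.00246) and P4ha2 (547 CPM in WT and 73.4 in KO, -2.86 ± 0.28, adjusted p = 0.00273) lower and P4ha3 (2.19) and P3h4 (1.56) higher. Of 13 trimming and cross-linking genes 8 were higher and none lower (median 2.47), with the enhancer Pcolce at 26.9 CPM in WT and 370 CPM in KO (3.81 ± 0.34, adjusted p = 0.00246), Loxl3 (3.33), Loxl1 (4.02) and Adamts3 (2.52). The receptors had 4 of 8 higher and 1 lower, the discoidin receptors in opposite directions (Ddr1 3.21, Ddr2 -2.25), beside Mrc2 (3.09) and Itga11 (2.62). Of 10 degradation genes 5 were higher, among them Mmp2 (3.77), Mmp14 (2.27), Timp1 (2.78) and Timp2 (1.96). In WT diff_XEN over mESC 17 of 21 modification genes were higher and none lower (Creb3l1 4.35, P4ha3 5.89, P3h2 6.89, Serpinh1 5.72). The other lists had 6 of 13, 6 of 8 and 7 of 10 higher, with 3, 0 and 0 lower. Of all genes, 27.2% were higher and 25.3% lower.

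The remaining members were scarce. Col10a1 and Col19a1 had too few reads to be tested in either set, Col9a1 and Col28a1 had too few at the endpoint, and Col10a1 did not exceed 0.0619 CPM in any library. At these depths, differences in such genes were not detectable.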

How the data were processed

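RNA-seq of 24 samples in 12 groups of 2 was deposited as raw read counts per gene, and 22 libraries were used. Per the submitters' processing notes, the authors aligned reads to mm10 with STAR 2.5.0c and counted them with featureCounts 1.4.5-p1; the labels name a reverse-stranded protocol, while the annotation and the strand setting of the counting are not given in the sources used here. 3 columns with endpoint values could not be tied to a sample and were left out, and with them the KO mESC group. The endpoint fits join tables that list the same identifiers in the same order.

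Counts were scaled by TMM, filtered by filterByExpr and tested with edgeR 4.0.16 (R 4.3.3, glmQLFit with robust estimation, glmQLFTest, Benjamini-Hochberg over all genes, threshold 0.05) in fits of the 16 course libraries, the 4 diff_XEN libraries, and the 6 endpoint libraries. The SE is the log2 difference divided by the square root of F. Scripts were tested on simulated counts. Alternatives were DESeq2 1.42.0 size factors and Wald test, no filter, smaller fits, a replicate block and leaving out each library. With 1 to 3 reads in a group the ratio of summed reads with an exact 95% interval is given, and 3 reads is the floor for a count of 0; both cover counting error only. Nothing in the labels says that the replicates of days 1 to 4 or of WT diff_XEN came from separate cultures. There p-values measure the spread between these libraries, which may be technical. The WT mESC replicates are 2 passages and the KO diff_XEN replicates 2 clones, so their spread also holds passage or clone differences. Replicates differed by 12.6 to 47.4 times the counting noise on days 1 to 4 (chi-square per degree of freedom, genes with at least 20 reads). At the endpoint this was 45.5 in KO diff_XEN, 103 in WT diff_XEN and 149 in WT mESC. 

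Exon lengths, coordinates and neighbours are from GENCODE M21. RefSeq windows were found for 33 of the 42 members, and 20 had one free of GENCODE exons. The members and lists were chosen with earlier results of these data known. Full values were given for up to 6 called members with the smallest p per main comparison and up to 3 members per class with the highest level per length; further members were named freely, and of the other lists the 4 called genes with the smallest p.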

Additional observations from a re-analysis of the deposited data

Results flagged for a closer look

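Col26a1 was the member whose change from day 1 to day 4 differed between the genotypes by a test of the difference itself. In edgeR's interaction test the change in KO minus the change in WT was 1.71 ± 0.35 on the log2 scale (adjusted p = 0.0148). In WT it was at 13.6 and 10.9 CPM on day 1 and at 7.27 and 10.4 CPM on day 4, and in KO at 5.22 and 4.10 CPM and then at 9.46 and 12.7 CPM. The libraries of the genotypes were apart on day 1 and overlapped on day 4. The call was lost without WT day 1 replicate 1 (1.52), WT day 4 replicate 1 (1.46), KO day 1 replicate 2 (1.57) or KO day 4 replicate 2 (1.46).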

How the results depend on the processing

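Over the course 32 members were called in WT and 34 in KO, and some of these calls were lost when a library was left out, as given above. The same held for the 18 calls in diff_XEN and the 28 against mESC. Counts of KO against WT within the course depended on the fit. With no expression filter, 14 of 42 members were called on day 1 (5 higher, 9 lower; 13.0% of all genes), 8 on day 2 (7 and 1; 3.78%), 9 on day 3 (6 and 3; 7.03%), 9 on day 4 (5 and 4; 7.32%) and 8 for the interaction (6 and 2; 9.35%). Fitted alone, the 4 libraries of a day gave 11 of 34 on day 1 (3 higher, 8 lower; 17.0% of all genes), 8 of 37 on day 2 (4 and 4; 8.70%), 0 of 35 on day 3 (2 at an unadjusted p below 0.05; 0.231%) and 2 of 36 on day 4 (1 and 1; 6.87%), and the 8 libraries of days 1 and 4 gave 4 of 39 for the interaction (all higher; 8.29%). The DESeq2 Wald test called, of 40, 6 on day 1 (2 higher, 4 lower; 18.5% of all genes), 4 on day 2 (3 and 1; 3.43%), 2 on day 3 (2 and 0; 7.60%), 4 on day 4 (1 and 3; 9.49%) and 2 for the interaction (2 and 0; 12.4%). DESeq2 size factors gave 1 on day 2 (1.66%). Leaving out each library gave 0 to 6 on day 1 (6 without KO replicate 1, 0 without either replicate 2, 1 without WT replicate 1), 0 on day 2, 1 to 10 on day 3, 0 to 2 on day 4 and 0 to 1 for the interaction.

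The day 4 differences with no call changed sign when a library was left out: Col1a1 lay between -0.17 (without WT replicate 2) and 0.80 and was -0.01 without KO replicate 1, Col3a1 between -0.26 and 1.00 and was -0.11 without KO replicate 1, and Col12a1 between -0.16 and 0.73. Col5a2 in diff_XEN lay between -1.40 and 0.37 and was 0.26 without clone 5-3. The cause was not tested. Over all single genes and alternatives, 1099 values kept direction and side of the threshold, 33 gained a call, 86 lost it and 7 changed sign.

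Same-numbered libraries deviated together by r = -0.18 to 0.39, above 0.1 in 7 of 28 pairs. These mixed values do not decide whether a replicate number stands for a shared culture. With a replicate block the calls were 32 and 34 over the course, 4, 0, 1 and 2 on days 1 to 4 and 1 for the interaction. No paired analysis was possible for diff_XEN because its columns carry no shared numbers. With 2 libraries per group, and clones as KO replicates at the endpoint, small differences were not detectable.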
